A study of Rattus norvegicus with 71 samples.

Results

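The data described here are one of the sequencing batches in a rat model of maternal autoantibody-related autism, and they set offspring of dams carrying the LDHA/B+CRMP1+STIP1 antibody pattern against control offspring. The members are the 28 libraries of 71 in the whole series that belong to this batch by their titles, namely 16 LDHA/B+CRMP1+STIP1 animals from 4 litters and 12 controls from 3 litters. Every litter gave 4 pups, 2 of them male, so that each sex holds 8 exposed and 6 control animals. All animals were wild-type Sprague-Dawley rats at postnatal day 2 (PND2), and poly-A RNA came from one coronal brain slice per animal.

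Before mating, exposed dams had been injected with synthetic peptides of lactate dehydrogenase A and B, collapsin response mediator protein 1 and stress-induced phosphoprotein 1 in Freund's adjuvant. Control dams had received the adjuvant with saline, so both groups share the adjuvant and differ in the peptides. The dam was the unit of exposure, and littermates are identified by their dam, here IgG1, IgG2 and RNA4 for controls and IgG3, FcRn4, RNA1 and RNA2 for exposed litters. What the prefixes of these identifiers stand for is not stated in the labels. The study's methods place the sequenced pups in the first litter of a dam, whereas its list of allocated offspring gives second litters for both groups compared here, so which litter these pups came from is not settled. The labels name the tissue as a slice with hippocampus, cortex and subcortical structures, whereas the series design text names frontal cortex and hypothalamus.

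Library totals ran from 25389628 to 31524646 counts in controls and from 24936909 to 32455969 counts in exposed animals. Of 18 listed markers of cortical and hippocampal neurons, 16 were present in the deposited counts. All 16 passed the expression filter (a counts-per-million value, CPM, above 1 in 2 or more libraries). Their summed level lay between 1748 and 3366 CPM in controls and between 2170 and 3257 CPM in exposed animals. One control library, the second male of litter IgG1, stood apart. The 30 Hox genes, which mark hindbrain and spinal cord, summed to 88.3 CPM in it and to at most 0.719 CPM in each of the other 27 libraries. Slc6a5, the glycine transporter of glycinergic neurons, was at 12.1 CPM in that library and at most 1.13 CPM elsewhere in the batch. Without this library, both calls of the exposure comparison were kept.

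During gestation, maternal IgG crosses the placenta on the neonatal Fc receptor FcRn and reaches the fetal brain before the blood-brain barrier is tight. LDHA and LDHB interconvert pyruvate and lactate, CRMP1 links semaphorin signals to the growth cone cytoskeleton, and STIP1 passes client proteins from HSP70 to HSP90. CREB1 is a transcription factor that binds cyclic AMP response elements and acts in neuronal survival, differentiation and plasticity. DNAJC3, also called p58IPK, is a co-chaperone of the endoplasmic reticulum (ER) and an inhibitor of the kinase PERK, and its gene is a known target of the unfolded protein response, the programme that raises ER chaperones when unfolded proteins accumulate.

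With animals as replicates, Creb1 and Dnajc3 were the genes that differed between exposed and control offspring, but fits by litter called none. Both rose in the exposed animals, Creb1 1.27-fold and Dnajc3 1.25-fold, and in both the 4 exposed litter means lay above the 3 control litter means. They were the 2 called genes (0.0161% of 12415 tested) at FDR < 0.1 in edgeR's quasi-likelihood test with sex as a covariate and animals as replicates. Apart from these, the distribution of changes was narrow. The median log2 fold change over all tested genes was 0.0013, the median absolute value was 0.0534 and the median standard error (SE) was 0.0733. At an unadjusted p under 0.05, 403 genes (3.25% of those tested) were higher and 274 (2.21%) were lower, together 677 or 5.45%. A uniform spread of p values would give 5%. Litter means did not overlap between the groups for 203 genes higher (1.64%) and 165 lower (1.33%) in exposed litters. For any gene, 1 of the 35 ways to pick 4 of the 7 litters puts all 4 above the rest. That is a share of 0.0286 in each direction, above both observed shares, so non-overlap is given here and below as a description.

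Creb1 lies on the plus strand of chromosome 9 at chr9:65903728-65967003 of the rn7 build. In controls it ranged from 14.5 to 19.7 CPM with a median of 17.1 CPM, and in exposed animals from 17.9 to 25.3 CPM with a median of 22.5 CPM. The single animals overlapped, but 13 of the 16 exposed animals lay above the highest control. Litter means were 17.2 CPM in IgG1, 17.1 CPM in IgG2 and 17.4 CPM in RNA4, against 22.1 CPM in IgG3, 21.3 CPM in FcRn4, 21.1 CPM in RNA1 and 23.2 CPM in RNA2. The control litters were thus within 1 CPM of each other, and the lowest exposed litter stood clear of all of them. The group means were 17.3 ± 1.76 CPM (SD) in controls and 21.9 ± 2.19 CPM in exposed animals, a fold of 1.27 (log2 fold change 0.35, SE 0.06, edgeR adjusted p = 0.0272).

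Dnajc3 lies on the plus strand at chr15:96025729-96065114 (rn7). It ranged from 15.1 to 21.1 CPM in controls, with a median of 18.02 CPM, and from 19.3 to 27.1 CPM in exposed animals, with a median of 22.1 CPM. Again 12 of 16 exposed animals exceeded the highest control. The litter means were 18.2 CPM in IgG1, 17.5 CPM in IgG2 and 18.3 CPM in RNA4, and 23.7 CPM in IgG3, 21.4 CPM in FcRn4, 22.6 CPM in RNA1 and 22.5 CPM in RNA2. The group means were 18 ± 1.92 CPM (SD) and 22.6 ± 2.27 CPM, a fold of 1.25 (log2 fold change 0.33, SE 0.06, edgeR adjusted p = 0.0272). Neither gene was among those that differed between litters of the same group.

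**Figure D1:**
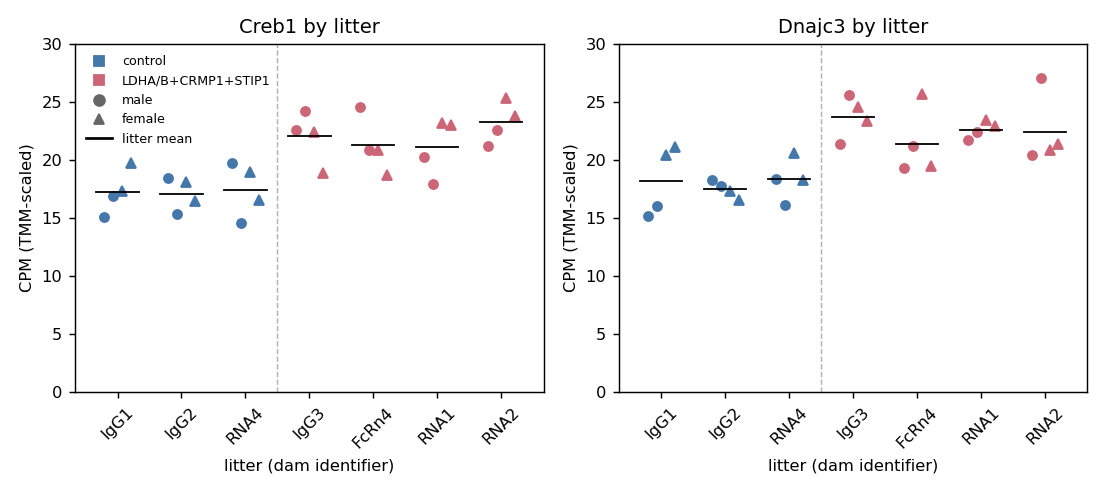
Levels of Creb1 and Dnajc3 in CPM (TMM-scaled, vertical axes from 0) for each animal, by litter on the horizontal axis. Circles are males, triangles females, blue control and red LDHA/B+CRMP1+STIP1 animals, and black bars litter means, which run from 17.1 to 17.4 CPM and from 21.1 to 23.2 CPM for Creb1.

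In fits of all tested genes that account for the dam, neither of these 2 genes was called. In a two-sided exact permutation test over the 7 litters, which has 35 arrangements and a smallest possible p of 0.0286, Creb1 and Dnajc3 each reached that smallest value, and 0.0858 after Benjamini-Hochberg adjustment over the 6 genes tested in this way. That is under 0.1, but the 6 are these genes, chosen for their small p, and the 4 antigen genes. With the litter as a random effect in limma, no gene passed (0 genes, 262 at an unadjusted p under 0.05), and the adjusted p was 0.781 for both genes although the fold changes were nearly the same (0.34 and 0.32). With counts summed per litter in edgeR no gene passed either (0 genes, 206 at an unadjusted p under 0.05), with log2 fold changes of 0.35 and 0.33. Leaving out control litter IgG2 also ended both calls (0 genes, 540 at an unadjusted p under 0.05, adjusted p = 0.546 for both genes in edgeR), whereas leaving out IgG3 or RNA1 ended that of Dnajc3 only and leaving out IgG1 or RNA2 that of Creb1 only. Without the library that holds Hox transcripts, both calls had adjusted p values of 0.0799 for Creb1 and 0.0809 for Dnajc3. Without control litter RNA4, 20 genes passed FDR < 0.1. The log2 fold change of Creb1 stayed between 0.32 and 0.36, and that of Dnajc3 between 0.30 and 0.35, when each litter was left out in turn.

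The promoter windows of both genes, from RefSeq on the GRCr8 build (250 bases before to 50 after the annotated start), are shown because these are the called genes and because ER chaperone genes carry a known shared element. The counts use rn7, so these coordinates are not on the build of the gene positions above. In the Dnajc3 window (chr15:102432417-102432716, plus strand) capitals mark the ER stress response element, searched on both strands as CCAAT, 9 bases of any kind and CCACG, with its first base at position -133 from the start. In the Creb1 window (chr9:73397259-73397558, plus strand) capitals mark TGACG, the core of the cyclic AMP response element, at -80, -59 and 8.
Dnajc3: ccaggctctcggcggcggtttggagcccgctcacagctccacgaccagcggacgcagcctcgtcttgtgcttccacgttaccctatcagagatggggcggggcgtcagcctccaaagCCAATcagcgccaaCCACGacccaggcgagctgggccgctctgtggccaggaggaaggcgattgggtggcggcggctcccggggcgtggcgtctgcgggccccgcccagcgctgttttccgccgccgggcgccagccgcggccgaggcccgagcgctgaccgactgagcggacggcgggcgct
Creb1: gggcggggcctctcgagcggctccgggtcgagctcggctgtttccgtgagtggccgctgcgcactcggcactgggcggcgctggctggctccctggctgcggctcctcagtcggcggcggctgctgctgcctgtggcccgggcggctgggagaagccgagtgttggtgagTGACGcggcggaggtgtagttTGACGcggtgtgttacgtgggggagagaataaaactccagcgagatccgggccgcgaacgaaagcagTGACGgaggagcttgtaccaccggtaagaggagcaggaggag

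Of 12415 tested genes, 9546 matched a promoter window by symbol. The ER stress response element was found in 16 of these windows (0.168%), in 6 of 300 windows of genes higher at an unadjusted p under 0.05 (2.0%) and in none (0 of 210) of the genes lower at that threshold. The full cyclic AMP response element TGACGTCA, which contains TGACG, was found in 306 windows (3.21%), in 1.67% of the higher and in 0.952% of the lower genes. TGACG itself was in 31.5% of all windows, 29.3% of the higher and 31% of the lower genes. These matches are descriptions of letters in a fixed window and were not tested. Since Dnajc3 carries the ER element, the matches in other ER chaperone and unfolded protein response genes are printed with it (GRCr8, written 5′ to 3′ from CCAAT, whose letters and those of CCACG are in capitals).
Dnajc3, chr15:102432534-102432552, plus strand: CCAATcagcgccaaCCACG
Hspa5, chr3:38452973-38452991, plus strand: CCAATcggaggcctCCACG
Xbp1, chr14:84604558-84604576, plus strand: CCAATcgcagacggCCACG
Derl3, chr20:12766601-12766619, plus strand: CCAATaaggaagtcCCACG
Creld2, chr7:121789239-121789257, minus strand: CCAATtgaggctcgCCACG
Calr, chr19:40213135-40213153, minus strand: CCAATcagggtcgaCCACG
Canx, chr10:35158069-35158087, minus strand: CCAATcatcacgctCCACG
Hsp90b1, chr7:23012347-23012365, plus strand: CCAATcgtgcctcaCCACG
Hsp90b1, chr7:23012451-23012469, minus strand: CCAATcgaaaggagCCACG

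The 16 genes with this element included 13 with a positive and 2 with a negative log2 fold change, and their median was 0.08. The 6 at an unadjusted p under 0.05 were Dnajc3, Hspa5, Creld2, Xbp1, Derl3 and Birc5, all higher in exposed animals. In batch 2, 4 of the 16 were higher, their median was -0.03 and 0 had an unadjusted p under 0.05.

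Other ER chaperones and components of the unfolded protein response were described from a list drawn up after Dnajc3 was seen, so its counts are no independent evidence. Of its 28 tested genes, 26 had a positive log2 fold change, 9 had an unadjusted p under 0.05 and were higher, none was lower at that threshold, and the median was 0.06. Among all genes tested, 50.7% had a positive value and 3.25% were higher at that threshold. With other scalings the number with a positive value was 24. Besides Dnajc3 (adjusted p = 0.0272), none of them passed FDR < 0.1.

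Hspa5, which encodes BiP, the main HSP70 chaperone of the ER, was at 356 ± 44.2 CPM (SD) in controls and 408 ± 23.2 CPM in exposed animals (log2 fold change 0.20, SE 0.05, unadjusted p = 0.000518, edgeR adjusted p = 0.592). Its litter means overlapped. They were 405 CPM in IgG1, 349 CPM in IgG2 and 315 CPM in RNA4, against 413 CPM in IgG3, 417 CPM in FcRn4, 389 CPM in RNA1 and 415 CPM in RNA2. Only control litter IgG1 reached the exposed range.

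Sdf2l1, a component of ER chaperone complexes, was at 5.80 ± 1.78 CPM and 7.64 ± 0.779 CPM (log2 fold change 0.41, SE 0.11, unadjusted p = 0.00084). Its log2 fold change was 0.15 in males and 0.69 in females, and the difference between sexes had an unadjusted p of 0.0125. Pdia4, a disulphide isomerase, was at 65.2 ± 10.5 CPM and 77.3 ± 7.98 CPM (log2 fold change 0.25, unadjusted p = 0.00129). The chaperone cofactors Creld2 (0.20), Manf (0.16) and Hyou1 (0.09), the degradation factor Derl3 (0.28) and the transcription factor Xbp1 (0.14) were the other genes of the list at an unadjusted p under 0.05. The stress sensors gave smaller values, with log2 fold changes of 0.05 for Eif2ak3 (PERK), 0.03 for Atf6 and 0.10 for Ern1 (IRE1), and the PERK branch factors Atf4 and Ddit3 were at 0.01 and 0.00. None of these 5 had an unadjusted p under 0.05.

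These ER values depended on litters and batch. The number at an unadjusted p under 0.05 was 6 with the litter as a random effect, 3 with counts summed per litter and 4 without control litter IgG2. In batch 2, which has its own dams and controls, 17 of the 28 were higher, 0 passed an unadjusted p under 0.05 and the median was 0.01. Dnajc3 itself was at 19.1 ± 3.31 CPM in batch 2 controls and 19.1 ± 3.17 CPM in batch 2 exposed animals, with a log2 fold change of 0.00 (SE 0.10). The difference of its effect between batches had an unadjusted p of 0.00549 and did not pass adjustment over all genes.

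**Figure D2:**
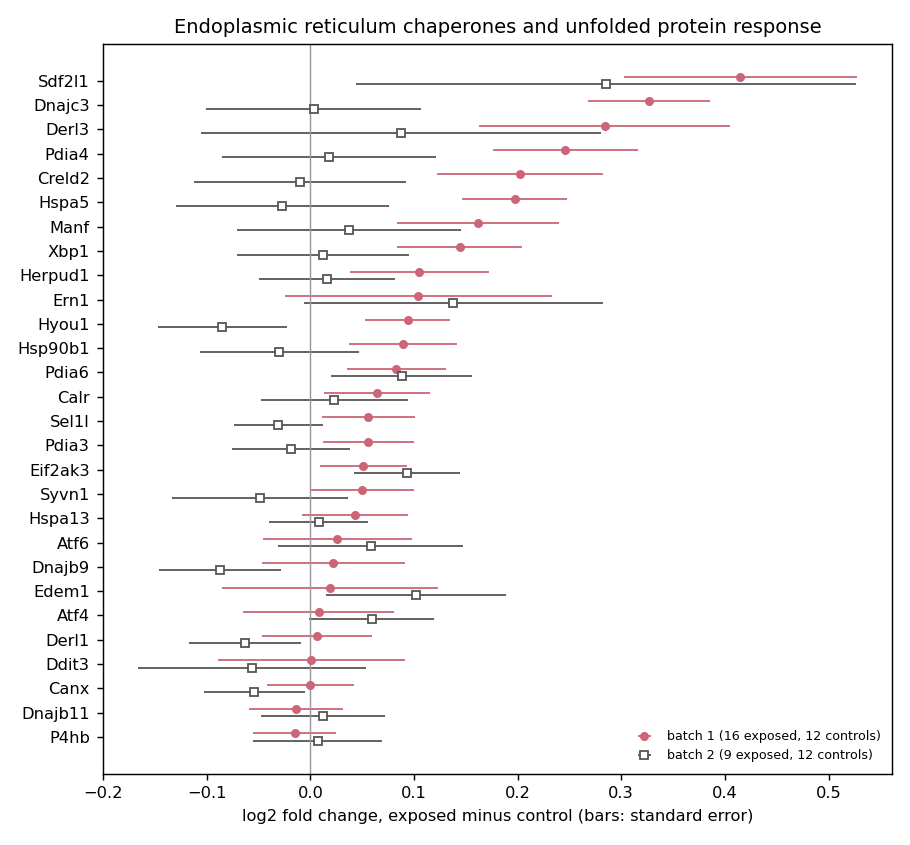
Log2 fold changes, exposed minus control, of the 28 tested ER chaperone and unfolded protein response genes, with standard errors as bars. Filled circles are batch 1 and open squares batch 2, and in batch 1 the points reach 0.41 for Sdf2l1 with 26 of 28 above 0, against 17 of 28 in batch 2.

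Creb1 gave a positive value in both batches. In batch 2 it was at 15.8 ± 2.46 CPM in controls and 18.8 ± 3.48 CPM in exposed animals (log2 fold change 0.25, SE 0.10, unadjusted p = 0.0244). The difference of its effect between batches was -0.09 with an unadjusted p of 0.405. Of the other CREB family members and coactivators, listed after Creb1 was seen, none passed an unadjusted p under 0.05. Of all 14 tested, Creb1 included, 9 had a positive log2 fold change and their median was 0.02.

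For the genes of the target antigens no difference passed the test over litters. Mean levels in controls were highest for Crmp1 at 799 RPKM (CPM per kilobase of exon), followed by Ldha at 218 RPKM, Ldhb at 165 RPKM and Stip1 at 104 RPKM. Ldha was at 349 ± 31.95 CPM (SD) in controls, ranging from 301 to 405 CPM, and at 327 ± 27.7 CPM in exposed animals, ranging from 284 to 396 CPM. The difference in litter means on the log2 scale was -0.09 with an exact permutation p of 0.229 (0.458 adjusted over 6 genes). Ldhb was at 233 ± 19.7 and 225 ± 20.3 CPM, with a difference of -0.05 and an exact permutation p of 0.514. Crmp1 was at 2652 ± 259 and 2689.8 ± 208 CPM, with a difference of 0.02 and an exact permutation p of 0.6. Stip1 was at 217 ± 13.7 and 219 ± 15.3 CPM, with a difference of 0.01 and an exact permutation p of 0.914. The signs for Crmp1 and Stip1 changed when single litters were left out. The antigens of the other patterns in the series, Dpysl2 (CRMP2), Gda and Eno2 (NSE), had log2 fold changes of 0.12, -0.14 and -0.08, none at an unadjusted p under 0.05.

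Genes that work with the antigens were described from 3 lists. Of 22 genes of glycolysis and lactate handling, 4 had a positive value, 2 were lower at an unadjusted p under 0.05 and the median was -0.06. That is 18.2% positive and 9.09% lower, against 50.7% and 2.21% of all genes tested. In the RNA-prefixed litters 14 of the 22 were positive, with a median of 0.02. Here and below, these are 2 exposed litters against control litter RNA4 alone, so exposure and that dam cannot be told apart in them. Of the lower genes, Aldoa, the main aldolase, was at 516 ± 71.2 CPM in controls and 469 ± 50.8 CPM in exposed animals (log2 fold change -0.14, unadjusted p = 0.0326). Among 19 HSP90 and HSP70 chaperones and cofactors that include Stip1, 11 were positive, 0 passed an unadjusted p under 0.05 and the median was 0.01, with Bag3, an HSP70 cofactor, lowest at -0.37 (unadjusted p = 0.0796). Of 24 genes of the CRMP family and neuronal cytoskeleton, 15 were positive, 0 passed that threshold and the median was 0.02.

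Litters of one group were compared in fits of their own, with fewer animals and more groups, so these counts are not set against those of the exposure comparison. Among the 3 control litters, 414 of 12222 tested genes (3.39%) differed at FDR < 0.1, and among the 4 exposed litters 317 of 12264 (2.58%). 37 genes were in both sets. Fam111a, a protease gene linked to DNA replication, had means of 8.23 CPM in IgG1, 86.5 CPM in IgG2 and 7.90 CPM in RNA4 (edgeR adjusted p = 1.29e-05). Dnajc25, a DnaJ-domain gene, was at 12.3, 29.7 and 9.99 CPM in the same order (adjusted p = 5.01e-05), so both were high in litter IgG2 alone. Arfgap2, which acts in transport from the Golgi, was lowest in that litter, at 68.6 CPM against 99.0 and 94.8 CPM (adjusted p = 0.00624). In exposed litters, Sec23b, a coat protein of ER export vesicles, was at 39.0 CPM in RNA1 and between 20.3 and 21.7 CPM in the others (adjusted p = 0.000555). LOC100912041 and Ghdc were the next genes by p, both with an adjusted p of 0.00117. Without the control library with Hox transcripts, 449 genes differed between control litters.

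The 12 genes named in the study's text had been chosen there on fits that combine these animals with batch 2, so their counts in neither batch are independent evidence of direction. In this batch, 9 were higher and 3 lower in exposed animals. At an unadjusted p under 0.05, 8 of them were higher and 2 were lower, and none passed FDR < 0.1. Of all genes tested, 3.25% were higher and 2.21% lower at that threshold. The 8 include Mfrp, which passed the filter through exposed animals alone. With at least 1 CPM in at least 8 libraries required, 11 were tested and 7 were higher at that threshold. Grin3b, an NMDA receptor subunit, was at 16.5 ± 3.19 CPM (SD) in controls, ranging from 12.2 to 21.97 CPM, and at 20.1 ± 2.79 CPM in exposed animals, ranging from 16.2 to 24.7 CPM (log2 fold change 0.28, SE 0.09, unadjusted p = 0.00345). Sav1, a scaffold of the Hippo pathway, was at 29.3 ± 3.18 and 33.7 ± 3.75 CPM (log2 fold change 0.20, unadjusted p = 0.00197). Efna2, an ephrin, was at 30.8 ± 3.69 and 34.9 ± 2.60 CPM (0.18, unadjusted p = 0.0028). For Sav1 and Efna2 every exposed litter mean lay above every control litter mean, which was not so for Grin3b.

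Among the others, the transcriptional repressors Bach1 and Bach2 had log2 fold changes of 0.16 and 0.25, the DNA polymerase gene Polq 0.45 at a level of 2.17 CPM in controls, and Kiaa0408L 0.18, each at an unadjusted p under 0.05. Mt1, a metallothionein, was at 5.47 ± 1.61 CPM in controls and 3.87 ± 0.891 CPM in exposed animals (log2 fold change -0.50, unadjusted p = 0.00154). The calcium sensor gene Vsnl1 was at 148 ± 15.1 and 134 ± 15.3 CPM (-0.15, unadjusted p = 0.0155). Pag1 (0.20, unadjusted p = 0.0698) and the calcium-binding protein gene Calb2 (-0.32, unadjusted p = 0.0894) did not reach that threshold. In the 9 exposed and 12 control animals of batch 2 all 12 had the same sign as here, which their choice favours. There 6 were higher and 3 were lower with an unadjusted p under 0.05, against 2.99% and 2.56% of all genes tested in both batches.

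**Figure D3:**
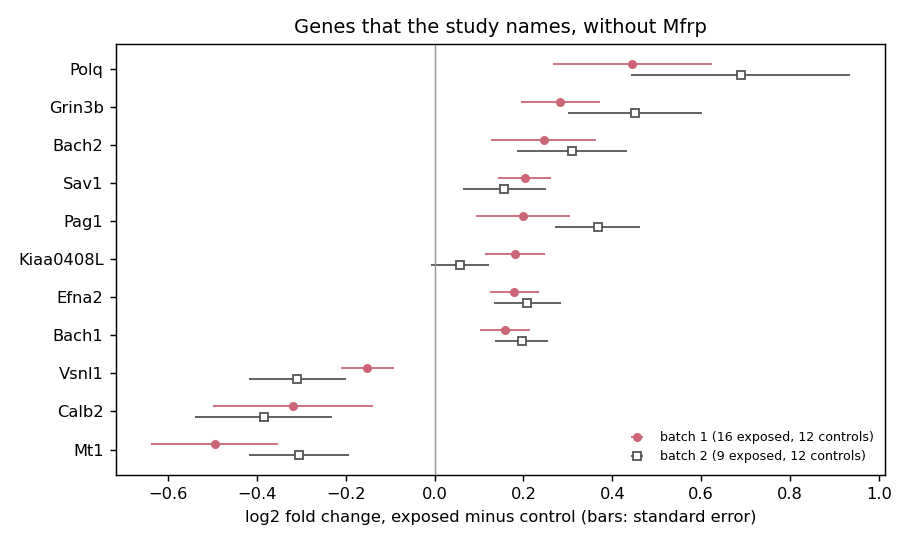
Log2 fold changes, exposed minus control, of 11 genes named in the study's text (Mfrp is plotted by animal with the regional genes), with standard errors as bars. Filled circles are batch 1 and open squares batch 2, and each gene lies on the same side of 0 in both, from Polq at 0.45 to Mt1 at -0.50 in batch 1.

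Mfrp, a membrane protein gene expressed in choroid plexus, was high in few animals. In controls it ranged from 0 to 0.975 CPM with a median of 0.0724 CPM, and in exposed animals from 0 to 14.8 CPM with a median of 0.479 CPM. Its litter means were 0.333 CPM in IgG3, 0.753 CPM in FcRn4, 5.39 CPM in RNA1 and 3.19 CPM in RNA2, against at most 0.342 CPM in controls. 3 exposed males from RNA1 and RNA2 were above 5 CPM, while most exposed animals were within the control range. It was over 1 CPM in 5 exposed and 0 control libraries, so it passed the filter through exposed animals alone, and its fitted log2 fold change of 3.96 (SE 0.83) is given as a description.

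Choroid plexus, the epithelium that secretes cerebrospinal fluid, moved with Mfrp. Of 16 tested markers of it, Mfrp included, 14 were higher in exposed animals, 5 of them at an unadjusted p under 0.05, and the median log2 fold change was 0.68. Of all genes tested, 50.7% were positive and 3.25% were higher at that threshold. Some of these markers passed the filter on a few libraries with high values. With at least 1 CPM in at least 8 libraries required, 9 were tested, 7 were higher, 3 of them at that threshold, and the median was 0.25. With the litter as a random effect 1 of the 16 was higher at that threshold, and in the IgG-prefixed litters 9 of 16 were positive with a median of 0.10. The summed level of the listed markers ran from 47.9 to 279 CPM in controls with a median of 169 CPM, and from 74.8 to 757 CPM in exposed animals with a median of 181 CPM. The medians of this sum were close, and the highest exposed animals lay far above the controls.

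Ttr, which encodes transthyretin and defines this epithelium, was at 0.367 to 105 CPM in controls (median 6.05 CPM) and at 0.134 to 521 CPM in exposed animals (median 33.6 CPM). 3 animals were above 200 CPM, the same exposed males that were highest in Mfrp. The summed level of the listed markers did not follow Ttr throughout. An exposed RNA2 female at 0.134 CPM of Ttr had a sum of 103 CPM, and the highest control sum, 279 CPM, came with 34.8 CPM of Ttr. Close medians of the sum therefore do not show close levels of Ttr. The ion channel gene Kcnj13 (log2 fold change 0.94), the chloride channel gene Clic6 (2.16) and the secreted BMP antagonist gene Sostdc1 (1.11) also had an unadjusted p under 0.05, although Clic6, at most 0.820 CPM in controls, passed the filter through exposed animals alone. In females 10 of the 16 were higher and 2 passed that threshold, and in males 15 and 6. The part that the amount of choroid plexus in each slice has in these values was not tested. In bulk RNA fewer cells of a type and less RNA per cell cannot be told apart.

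**Figure D4:**
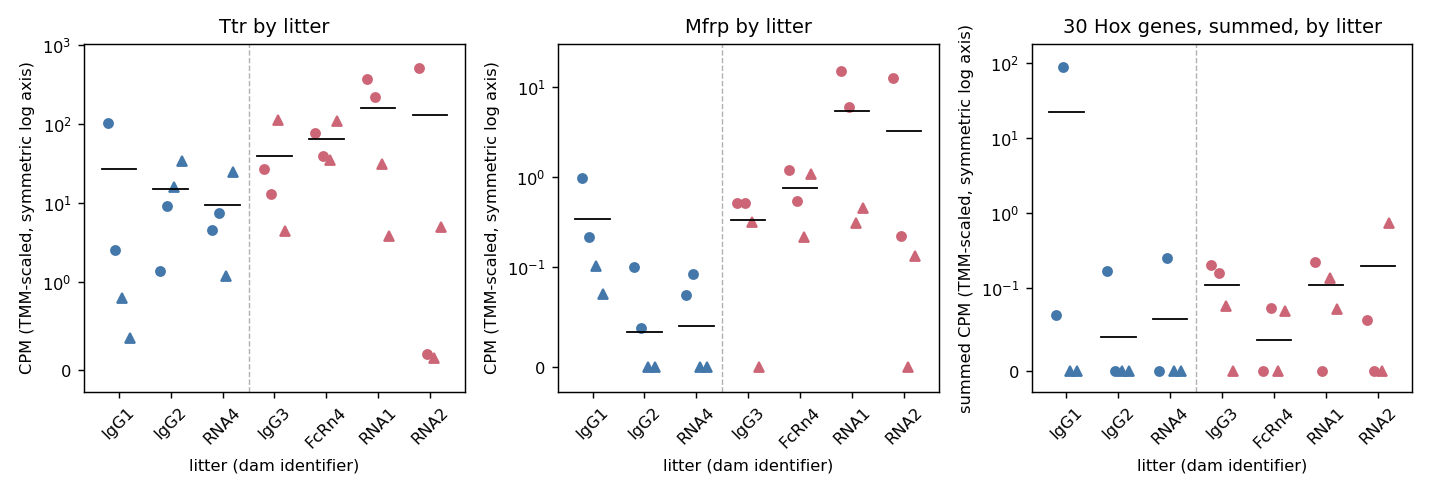
Levels per animal of Ttr, Mfrp and the sum of 30 Hox genes in CPM (symmetric log axes), by litter, with blue for control and red for LDHA/B+CRMP1+STIP1 animals, circles for males, triangles for females and black bars for litter means. Ttr and Mfrp are highest in 3 exposed males of RNA1 and RNA2, up to 521 and 14.8 CPM, and the Hox sum reaches 88.3 CPM in 1 control male.

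Hindbrain genes gave the opposite sign, with the control library that holds Hox transcripts included. None of the 30 Hox genes passed the filter in this batch. Slc6a5 had a log2 fold change of -1.85 (unadjusted p = 0.000606) and Barhl1, a transcription factor gene of hindbrain and cerebellar precursors, of -2.97 (unadjusted p = 0.00477). Neither was over 1 CPM in any exposed animal, so both passed the filter through control animals alone, and their values are given as a description. Of 4 tested genes of glycinergic and hindbrain neurons, a list drawn up with values known, 0 were positive and these 2 were lower at an unadjusted p under 0.05. Without that library 2 were tested, neither Slc6a5 nor Barhl1 among them, and 1 was positive. Barhl1 was at 7.78 CPM in that library, at 5.23 CPM in the second male of control litter IgG2 and at most 0.336 CPM in every other animal, so its difference rested on 2 control males. In the IgG2 male the Hox genes summed to 0 CPM and Slc6a5 was at 0.391 CPM.

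Markers of other cell types had smaller log2 fold changes. For astrocytes, all 10 tested markers had a negative log2 fold change, 3 at an unadjusted p under 0.05, with a median of -0.09. Of all genes tested, 50.7% were positive and 2.21% were lower at that threshold. The water channel gene Aqp4 was at 128 ± 26.7 CPM (SD) in controls and 110 ± 17.8 CPM in exposed animals (-0.22), Gfap at 45.4 ± 19.2 and 34.7 ± 9.17 CPM (-0.38) and Aldoc at 197 ± 28.04 and 180 ± 20.8 CPM (-0.13). This turned on litters. Without control litter IgG2, 5 of 10 were positive and none passed. In the RNA-prefixed litters, where RNA4 is the only control litter, 8 of 10 were positive. Without the library that holds Hox transcripts 2 of 10 were positive, none passed and the median was -0.08. Of 13 oligodendrocyte lineage markers 4 were positive and 2 lower at that threshold, among them the myelin enzyme gene Cnp (95.9 ± 8.54 against 87.3 ± 10.7 CPM, log2 fold change -0.14, unadjusted p = 0.0285). Without the Hox library 1 was lower and the median was -0.04, and in batch 2, 11 of the 13 were positive.

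Of 13 radial glia and progenitor markers, 7 were positive with a median of 0.00. Hes5, a Notch target, was higher (0.14, unadjusted p = 0.0498), while the glial glutamate transporter gene Slc1a3 (-0.13, unadjusted p = 0.044) and the fatty acid carrier gene Fabp7 (-0.16, unadjusted p = 0.0481) were lower. These are 7.69% higher and 15.4% lower, against 3.25% and 2.21% of all genes tested. For cortical and hippocampal neurons 14 of 16 were positive, none passed an unadjusted p under 0.05 and the median was 0.09. In the RNA-prefixed litters 8 of these 16 were positive (median -0.001), and in the IgG-prefixed litters 14 (median 0.26). In batch 2, 12 of the 16 were positive and 6 were higher at that threshold, against 2.99% of all genes tested in both batches. No marker passed it among those of thalamus (4 of 12 positive), hypothalamus (4 of 11), striatum (3 of 11), interneurons (5 of 11), pineal gland (0 of 2), meninges (6 of 13), endothelium and pericytes (12 of 16) or microglia (11 of 19). Without the Hox library 6 of 11 tested thalamus markers were positive, and the median went from -0.12 to 0.05. All 9 tested red blood cell genes were negative with a median of -0.27, and Hba-a3, an alpha globin gene, was lower at that threshold (6.75 ± 4.57 against 3.83 ± 1.90 CPM). This direction turned without control litter IgG2 (5 of 9 positive, median 0.01), in the RNA-prefixed litters (9 of 9, median 0.32) and in batch 2 (8 of 9, median 0.36). Without the Hox library the median was -0.13 and none passed.

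Synaptic genes had small negative values. Of 37 genes of synaptic vesicles and release, 8 were positive (21.6%, against 50.7% of all genes tested) and the median was -0.04. At an unadjusted p under 0.05, 2 were lower (5.41%, against 2.21% of all). The 2 were the vesicle fusion gene Vamp2, at 659 ± 63.3 CPM in controls and 616 ± 28.5 CPM in exposed animals (-0.10), and the vesicle glycoprotein gene Sv2a, at 347 ± 32.8 and 327 ± 22.7 CPM (-0.09). The direction of this list turned without control litter IgG2, when 25 of 37 were positive, and in males alone 21 of 37 were positive. In batch 2, 6 of 37 were positive and 4 were lower at that threshold, against 2.56% of all genes tested in both batches. Among 28 glutamate and GABA-A receptor genes 11 were positive, 2 were higher at an unadjusted p under 0.05, Grin3b among them, and 1 was lower, the NMDA subunit gene Grin2c (-0.45, unadjusted p = 0.048). These are 7.14% higher and 3.57% lower, against 3.25% and 2.21% of all genes tested.

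Genes of translation and respiration were described from 3 lists. Of 77 cytosolic ribosomal protein genes, 1 was positive, 4 were lower at an unadjusted p under 0.05 and the median was -0.07, and Rps27 was at 158 ± 31.6 CPM in controls and 135 ± 24.3 CPM in exposed animals. The share lower at that threshold was 5.19%, against 2.21% of all genes tested, of which 50.7% were positive. In batch 2, 69 of the 77 were positive with a median of 0.05. Of 77 nuclear genes of the respiratory chain, 3 were positive and 3 were lower at that threshold (3.9%), among them Uqcrh of complex III (-0.16), and the median was -0.07. In batch 2, 40 of these were positive and the median was 0.00. Among 70 mitochondrial ribosomal protein genes 26 were positive, 2 were higher (2.86%, against 3.25% of all) and 3 lower (4.29%), and the median was -0.03. Without exposed litter IgG3, 37 of the 70 were positive, and in batch 2, 41. Many of these genes have near-identical processed copies, and how reads shared between copies were counted is not given in the sources used here.

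The numbered Zfp genes, which encode zinc finger factors that bind DNA, had 125 of 175 values above 0 (71.4%, against 50.7% of all genes tested) and a median of 0.03. At an unadjusted p below 0.05, 16 were higher (9.14%, against 3.25% of all) and 1 was lower (0.571%, against 2.21%). Zfp786 was at 19.5 ± 2.43 CPM (SD) in controls and 23.2 ± 2.80 CPM in exposed animals (0.24, unadjusted p = 0.00133), with no overlap of litter means, and Zfp354c at 42.2 ± 5.96 and 47.6 ± 4.28 CPM (0.17). The lower gene was Zfp541 (-0.51, unadjusted p = 0.00765). The count rested on the litters chosen. 40 were higher at that threshold without control litter RNA4 and 6 without IgG2. Among all genes, 1499 of 12389 and 540 of 12367 had an unadjusted p under 0.05 in these fits, in either direction. In the RNA-prefixed litters, with RNA4 the only control litter, 59 of 175 were positive, 4 were higher and 25 were lower at that threshold. There 1837 of 12415 genes had an unadjusted p under 0.05 in either direction. In batch 2, 101 of 175 were positive and 8 were higher at that threshold, against 2.99% of all genes tested in both batches.

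**Figure D5:**
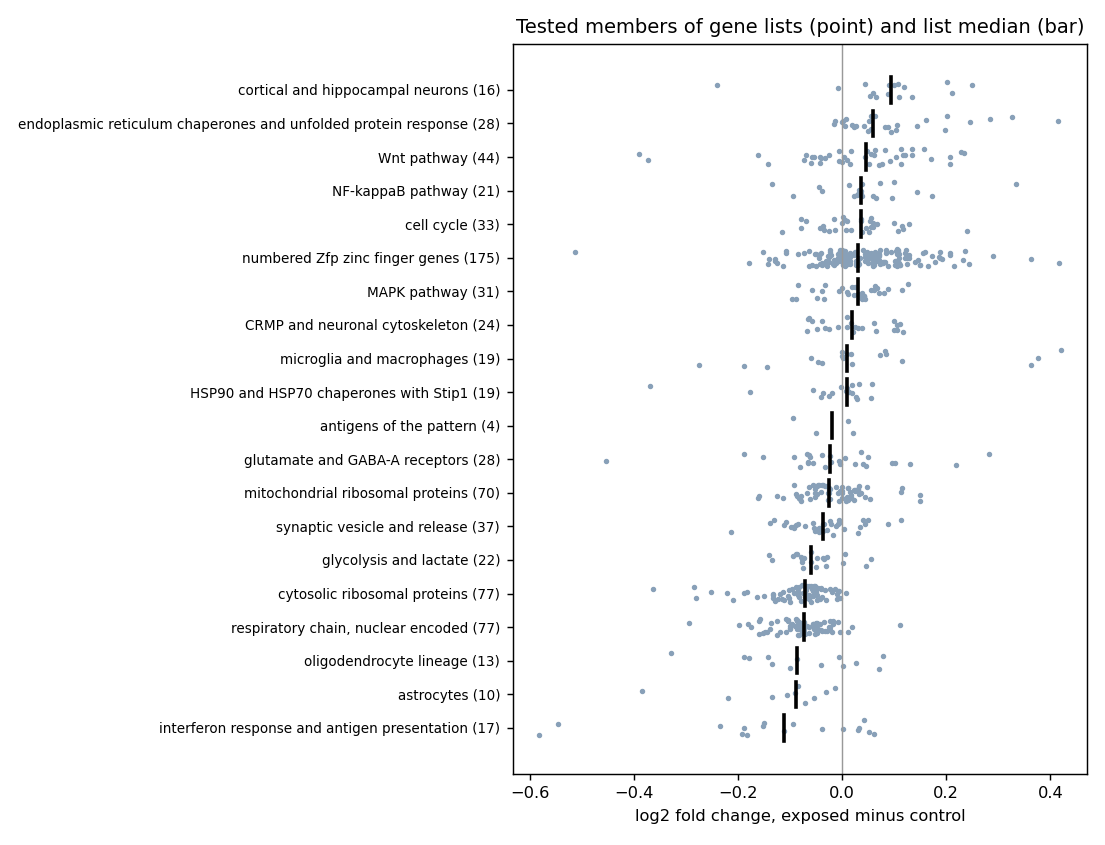
Log2 fold changes, exposed minus control, of the tested members of 20 gene lists (points, spread vertically for legibility) with the list median as a black bar and the number of members in brackets. Medians run from -0.11 for interferon response and antigen presentation genes to 0.09 for cortical and hippocampal neuron markers, within the spread of single genes.

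Signalling pathways showed a few single genes. Of 44 Wnt pathway genes, 27 were positive, 4 were higher and 1 was lower with an unadjusted p under 0.05, and the median was 0.05. These are 61.4% positive, 9.09% higher and 2.27% lower, against 50.7%, 3.25% and 2.21% of all genes tested. The 4 were the Wnt receptor genes Fzd8, Lrp5, Fzd3 and Fzd1. Fzd8 was at 24.0 ± 2.37 CPM in controls and 27.8 ± 3.26 CPM in exposed animals (0.21, unadjusted p = 0.00219) and Lrp5 at 24.0 ± 1.78 and 27.03 ± 3.09 CPM (0.17, unadjusted p = 0.00591). In 11 of 16 exposed animals Lrp5 was above the highest control, and neither gene's litter means overlapped. Without control litter RNA4 the Wnt median was -0.02 and 19 of 44 were positive. In females 21 of 44 were positive (median -0.01) and in males 25 (median 0.04). In batch 2, 22 of the 44 were positive and the median was -0.001. Among 31 MAPK genes 21 were positive, 1 was higher and 1 was lower at an unadjusted p under 0.05, the latter the kinase gene Araf (-0.10). These are 3.23% higher and 3.23% lower, near the 3.25% and 2.21% of all genes tested. Of 21 NF-kappaB genes 17 were positive (81.0%, against 50.7% of all genes tested) and none passed. In batch 2, 10 of these 21 and 13 of the 31 MAPK genes were positive. Of 13 EGF and neuregulin genes 9 were positive and Nrg1, a ligand of ErbB receptors, was higher at that threshold (0.16), which is 7.69% of the list. Of 33 cell cycle genes 22 were positive, and Birc5, which encodes survivin, was higher at that threshold (0.24). That is 3.03% of the list, near the 3.25% of all genes tested. In batch 2, 11 of the 33 were positive.

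Most genes of the assayed cytokines, chemokines and growth factors fell below the filter. Of the 28 genes of cytokines, chemokines and growth factors that the study assayed as proteins, 4 passed the filter. Among them Egf was at 3.03 ± 1.16 CPM in controls and 3.11 ± 0.780 CPM in exposed animals (0.04) and Vegfa at 112 ± 25.3 and 114 ± 20.8 CPM (0.02). Fcgrt, which encodes the FcRn heavy chain, was at 11.8 ± 3.34 and 12.3 ± 3.36 CPM (0.05, unadjusted p = 0.735), and of 6 IgG receptor genes 2 were positive. Of 17 interferon response and antigen presentation genes 6 were positive with a median of -0.11, and Ifi27 was at 12.6 ± 4.05 and 8.49 ± 3.47 CPM (-0.55, unadjusted p = 0.00545). The list's median was 0.00 without control litter IgG2 (9 of 17 positive), 0.14 in the RNA-prefixed litters (13 of 17) and -0.01 in batch 2 (8 of 16). Of 13 glucocorticoid response genes 7 were positive, and both metallothionein genes, Mt1 (above) and Mt2A (-0.40, unadjusted p = 0.00523), were lower. These 2 are 15.4% of the list, against 2.21% of all genes lower at an unadjusted p under 0.05. Of 11 hypoxia genes 8 were positive and P4ha1, a collagen prolyl hydroxylase gene, was higher at an unadjusted p under 0.05 (0.14). That is 9.09% of the list, against 3.25% of all genes tested. Of 23 immediate early genes 13 were positive and none passed.

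No gene passed adjustment in the test of a difference between the sexes. The sex by exposure term gave 0 genes at FDR < 0.1 in edgeR and 0 in DESeq2 (smallest edgeR adjusted p 0.928), and 479 (3.86%) at an unadjusted p under 0.05. Creb1 had a log2 fold change of 0.39 in males and 0.30 in females, and the difference had an unadjusted p of 0.488. Dnajc3 was at 0.40 and 0.25, with an unadjusted p of 0.204.

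Leaving out control litter RNA4 raised the number of called genes to 20, of which 12 were higher and 8 lower, and the number at an unadjusted p under 0.05 to 1499 (12.1%). Both Creb1 and Dnajc3 were among the 20. Sox11, a transcription factor gene of newborn neurons, was then the gene with the smallest p (log2 fold change 0.41, edgeR adjusted p = 0.0207), and in all 28 animals it was at 231 ± 52.8 CPM in controls and 287 ± 37.01 CPM in exposed animals (0.31, adjusted p = 0.705). Its mean was 221 CPM in IgG1, 210 CPM in IgG2 and 263 CPM in RNA4, against 271 to 322 CPM in exposed litters. Elavl1, which encodes the RNA-binding protein HuR, had an adjusted p of 0.052 without that litter and 0.274 with it. Mt1 (-0.68) and Mt2A (-0.59) were among the 8 lower genes. Sox11 and Elavl1 lie outside the rule for named genes and were picked with their values known.

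Batch 2 gave an independent set of 9 exposed and 12 control animals. Of the 403 genes higher here at an unadjusted p under 0.05, 402 were tested there and 313 (77.9%) were higher there, against 50% of the 12317 genes tested in both batches. 54 of them (13.4%) were also higher there at an unadjusted p under 0.05, against 2.99% of all. Of the lower genes, 273 were tested there, 180 (65.9%) were lower, against 50% of all, and 21 (7.69%) were lower at that threshold, against 2.56%. In batch 2 alone, 706 of 12570 genes (5.62%) had an unadjusted p under 0.05 and 0 passed FDR < 0.1.

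Genes at an unadjusted p under 0.05 with the same sign in both batches included Creb1, Sox11 and both Nfya and Nfyc, subunits of the factor NF-Y that binds CCAAT boxes. Nfya was at 40.3 ± 3.90 CPM in controls and 46.6 ± 5.58 CPM in exposed animals (0.21, unadjusted p = 0.0014) and had a log2 fold change of 0.25 in batch 2. Nfyc was at 51.7 ± 3.48 and 56.05 ± 2.77 CPM (0.12, unadjusted p = 0.00411) and had 0.10 in batch 2. For both, no litter mean of one group lay within the range of the other. They too were picked with their values known. Grin3b, Efna2, Bach1, Bach2, Polq, Vsnl1, Mt1 and Sv2a were also in this set, and all of them but Sv2a had been chosen in the study on fits with both batches. The exposure effect differed between batches for 14 of 12700 genes (0.11%) at FDR < 0.1, of which 10 were Hox genes. The Hox genes passed the filter of this fit on a few libraries with high values, so this count is given as a description. With at least 1 CPM in at least 8 libraries required, 0 genes were called.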

How the data were processed

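The authors aligned paired-end reads with STAR 2.5.4b to rn7 and counted them per gene with featureCounts; the deposited values are raw counts for 17494 genes in 71 libraries, beside the exon length of each gene. Strand and multi-mapping settings are not given in the sources used here. Among counts from 1 to 9, 74.5% were even, so halved counts were tried. Groups, litters, sexes and batches came from the labels.

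Genes over 1 CPM in at least 2 libraries were tested in R 4.3.3 with edgeR 4.0.16 (TMM, factors 0.962 to 1.04, robust quasi-likelihood test, sex as covariate), FDR < 0.1 over all genes tested. Animals were replicates, as in the study. The CPM in the text are TMM-scaled. Alternatives used DESeq2 1.42.0, sva 3.50.0 and limma 3.58.1 (litter as a random effect, correlation 0.142). At 24936909 to 32455969 counts per library, 1 CPM is 24.9 to 32.5 counts. Within groups, no libraries agreed within sampling noise (smallest chi-square per gene 9.67).

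Genes were named by rule: up to 12 called genes in each direction, the antigens, genes in the study's text, up to 4 members per list with the smallest p, and 3 genes per interaction or litter test; others were picked with their values known, as were the ER, CREB and hindbrain lists. Members and lists were chosen with earlier results of these data known. Unadjusted p values come from edgeR. RefSeq promoters (GRCr8) were matched by symbol. Some single genes of these lists are not reported here.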

Additional observations from a re-analysis of the deposited data

Results flagged for a closer look

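The exposure effect differed between batch 1 and batch 2 for 14 genes by a test of the interaction. The smallest adjusted p values in edgeR were those of Hoxb5 (0.000379), Hoxa5 (0.00131) and Hoxc4 (0.00218), and 10 of the 14 were Hox genes. The 30 Hox genes summed to over 1 CPM in 5 of 9 exposed and 2 of 12 control libraries of batch 2, and in 0 of 16 exposed and 1 of 12 control libraries of batch 1. Their summed level reached 167 CPM in batch 2 exposed animals and 8.37 CPM in batch 2 controls, against 88.3 CPM in 1 control library of batch 1. The third highest sum in batch 2 exposed animals was 25.0 CPM and the fourth highest 2.02 CPM. The Hox genes thus passed the filter of this fit on a few libraries with high values, and their adjusted p values are given as a description. Without the libraries over 1 CPM (41 kept), 124 genes had an interaction at FDR < 0.1. The part of these libraries in the other values was not tested.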

How the results depend on the processing

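Against 2 called genes with animals as replicates, DESeq2 called 7 and edgeR's likelihood ratio test 3. The count was 0 with the litter as a random effect in limma (262 genes at an unadjusted p under 0.05) and, in edgeR, with counts summed per litter (206), in males (676), in females (427) and with the dam identifier prefix as a covariate (756). When each litter was left out in turn it ran from 0 (without IgG2) to 20 (without RNA4). Within the litters with the prefix IgG (1 exposed, 2 control) 296 genes passed, and within those with the prefix RNA (2 exposed, 1 control) 414. Other scalings and filters, a surrogate variable, halved counts, no covariate and leaving out the library with Hox transcripts or the library farthest on the second component gave 2. With the pup number as a replicate block 2 genes were called; the number orders pups within a litter and does not pair animals. The prefix settings, and those leaving out single libraries, were added after seeing the data. The sex by exposure count stayed at 0 (459 to 752 at an unadjusted p under 0.05 in edgeR, DESeq2 and limma). For exposure by batch, 14 genes became 6 in DESeq2, 0 with at least 1 CPM in 8 samples (356 at an unadjusted p under 0.05), 0 with the litter as a random effect in limma (73) and 124 without libraries with Hox genes. DESeq2 called 1402 genes between control litters and 1318 between exposed litters, against 414 and 317.

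Of the 67 single genes followed, the log2 fold change reversed in the RNA-prefixed litters for Ldhb (0.10), Crmp1 (-0.02), Gda (0.15), Eno2 (0.09), Bach2 (-0.06), Mt2A (0.14), Calb2 (0.52), Barhl1 (0.03), Cnp (0.02), Aqp4 (0.16), Gfap (0.46), Aldoc (0.02), Aldoa (0.03), Hba-a3 (0.60), Slc1a3 (0.08), Egf (-0.45) and Vegfa (-0.40). It reversed in the IgG-prefixed litters for Stip1 (-0.10) and Fcgrt (-0.03), in males for Stip1 (-0.02), Gda (0.06), Egf (-0.13), Vegfa (-0.15) and Fcgrt (-0.01), and in females for Barhl1 (0.42). With the prefix as a covariate Stip1 (-0.00) and Egf (-0.05) reversed, and without the Hox library Crmp1 (-0.00), Egf (-0.02) and Vegfa (-0.00). With single litters left out, the values ran from -0.02 to 0.07 for Crmp1, -0.03 to 0.04 for Stip1, -0.31 to 0.16 for Gda, -0.17 to 0.32 for Egf, -0.09 to 0.21 for Vegfa and -0.09 to 0.27 for Fcgrt. The cause was not tested. With 3 and 4 litters, the exact test over litters cannot go below 0.0286.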
